A study of Mus musculus with 7 samples.

Results

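The B lineage genes described here are Cd79a, Cd79b, Ighm, Blk, Ms4a1, Fcer2a, Pax5, Vpreb3 and Jchain, measured by every probe set whose only gene symbol is one of these 9. They were chosen by name and held 22 of the 45101 probe sets on the array. The arrays carried RNA of macrophages sorted by GFP and F4/80 after papain digestion of the brain, with 3 preparations from normal brain and 4 from GL261, a mouse glioma cell line. Normal brain preparations came from C57/Bl6 mice at 8 weeks of age, with no tumour. GL261 preparations came from C57/Bl6 mice that carried transplanted GFP bone marrow and an intracranial tumour grown for 21 days, and the age of these mice is not given in the labels. Whether mice of the normal brain group also had GFP marrow is not stated, so a difference in which cells the GFP gate took and a difference between brain and tumour cannot be told apart. It is also not stated that arrays came from separate mice, so p-values measure only the spread between these arrays. Values are MAS5 signals on a linear scale.

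B cells recognise antigen through a membrane immunoglobulin, whose mu heavy chain is encoded by Ighm. It is held on the surface by the signalling chains Cd79a and Cd79b. The kinase Blk acts just below this receptor, Ms4a1 (CD20) and Fcer2a (CD23, a low-affinity IgE receptor) are surface proteins of mature B cells, and Pax5 is the transcription factor that commits cells to the lineage. Vpreb3 acts while the receptor is assembled in developing B cells, and Jchain links secreted IgM and IgA chains into polymers. Healthy brain tissue holds few B cells, while meninges, blood and the marrow of the skull contain them.

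Of the 9 B lineage genes 7 fell in the GL261 preparations in at least 1 probe set, while Vpreb3 was not called and Pax5 was at background. By the brightest probe set of each gene 6 of the 9 fell, as that of Ighm was not called. No share of all genes was taken by either rule. Ms4a1, Cd79a and Blk kept 6.31% to 10.6% of their mean normal brain signal, while Cd79b kept 32.1%, Jchain 47.0% and the Ighm probe set 1427329_a_at 43.5%. The filter on low values (a mean log2 value above 4.93) was passed by 14 of the 22 probe sets. Of these 14, 8 were called lower and 0 higher by limma at an adjusted p under 0.05, against 2.47% of all 27022 probe sets tested that were called lower. All GL261 arrays lay under all normal brain arrays for 11 of the 14, and for 9.45% of all probe sets tested. The median log2 fold change was -1.08 over all 22 probe sets and 0.01 over all probe sets tested. As 4 of the 14 passed the filter only through their normal brain values, the count of calls was also taken with no filter, where 7 of 22 were lower against 0.888% of all 45037. The 11 without overlap include Ighm 1452535_at and Fcer2a 1422122_at, both among these 4. With no filter 12 of 22 did not overlap, and the share over all 45037 was not taken. Because the genes were chosen with earlier results of these arrays known, the counts describe them and are not independent evidence. In preparations of many cells, fewer cells of a type and less RNA per cell cannot be told apart.

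**Figure D1:**
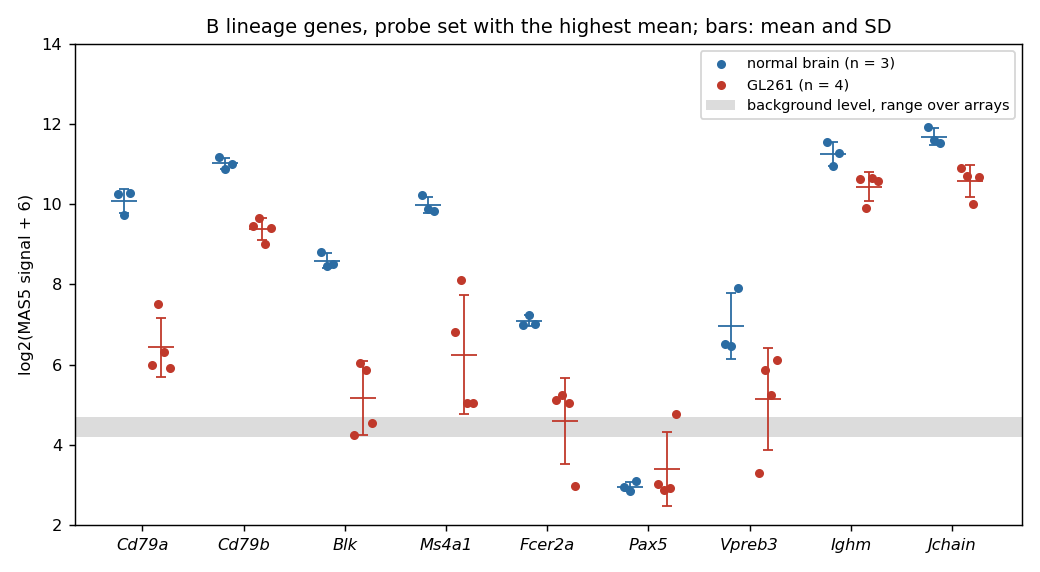
The plot gives log2(MAS5 signal + 6) for each of the 9 B lineage genes (probe set with the highest mean), with 1 point per array, blue for normal brain (n = 3) and red for GL261 (n = 4), the mean and SD as bars, and the background level of the arrays (log2 4.19 to 4.70) as a grey band. Groups did not overlap for 8 of the 9 genes, and Pax5 lay at background. All GL261 arrays lay under all normal brain arrays for 9.45% of all probe sets tested.

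Cd79a, the alpha signalling chain of the receptor, had signals of 1207, 840 and 1232 on the 3 normal brain arrays and 57.8, 176, 74.1 and 54.6 on the 4 GL261 arrays. Every GL261 array was far under every normal brain array, with replicate 2 the highest of the tumour arrays. On the scale of log2(signal + 6), Cd79a was at 10.08 ± 0.31 (SD, n = 3) on the normal arrays and at 6.44 ± 0.74 (SD, n = 4) on the tumour arrays, so it fell by 3.64 (SE 0.46, limma adjusted p = 0.00187). Cd79b, the beta chain that pairs with it, had signals of 2296, 1876 and 2066 in normal brain and 696, 797, 507 and 671 in GL261. Its groups were also apart, but its GL261 values stayed well above the background signal of 12.3 to 19.9. Cd79b fell by 1.64 (SE 0.21, adjusted p = 0.00214).

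The difference between the chains was compared within each array, as the log2 value of Cd79a minus that of Cd79b. In normal brain it was -0.94 ± 0.21 (SD, n = 3), and the tumour arrays had -2.94 ± 0.65 (SD, n = 4), a shift of -2.00. The two-sided exact permutation p was 0.0286, the smallest that the 35 splits of the arrays allow. It was 0.0571 after adjustment over the 6 pairs of genes compared in this way, which were chosen after their values were seen. The difference says nothing of the level of one probe set against the other.

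Expression arrays do not read promoters. The 250 bases before a RefSeq start (GRCm38.p6) are shown for Cd79a, a member that fell, and for Vpreb3, because both hold motifs bound by factors active in B cells. The windows are chr7:24897247-24897496 (plus strand) for Cd79a and chr10:75948050-75948299 (plus strand) for Vpreb3. The Cd79a window ends at the edge of the gene, while that of Vpreb3 lies inside the gene's RefSeq span, before a start other than the outermost one. Capitals mark matches on either strand to the octamer ATGCAAAT bound by Oct factors, the E-box CAGGTG bound by E proteins and GAGGAA, 1 form of an ETS site. The shorter ETS core GGAA was not searched for, and it also occurs unmarked.
Cd79a: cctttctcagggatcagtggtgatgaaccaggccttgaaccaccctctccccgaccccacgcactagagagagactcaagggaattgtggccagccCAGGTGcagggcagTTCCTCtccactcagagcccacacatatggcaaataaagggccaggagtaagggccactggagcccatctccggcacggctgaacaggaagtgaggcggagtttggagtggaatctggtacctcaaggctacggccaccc
Vpreb3: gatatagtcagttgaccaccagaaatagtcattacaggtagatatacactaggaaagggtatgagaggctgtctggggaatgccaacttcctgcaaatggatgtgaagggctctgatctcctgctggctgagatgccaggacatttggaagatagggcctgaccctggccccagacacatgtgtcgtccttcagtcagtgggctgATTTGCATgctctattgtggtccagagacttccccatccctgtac
Cd79a holds 1 E-box and 1 GAGGAA, and Vpreb3 holds 1 octamer, whose first base is at -45 from that start. Among all 32851 promoter windows of this length, 1.60% hold the octamer, 17.2% the E-box and 23.3% GAGGAA. Promoters of 5 of the 9 genes matched by symbol. Neither Pax5 nor Jchain has any of the 3 motifs in its window, and of the 3 Fcer2a windows 1 has the E-box, at 2 places. None of the 3 motifs overlapped another.

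Ighm, the mu heavy chain, was represented by 11 probe sets that did not behave alike. Of the 6 that passed the filter 1 was called, against 2.47% of all probe sets tested that were called lower. All 11 had lower mean log2 values in GL261. In 4 of the 11 all GL261 arrays lay under all normal brain arrays, against 9.45% of all probe sets tested. The called probe set, 1427329_a_at, had signals of 2168, 1739 and 1697 in normal brain and 798, 849, 886 and 717 in GL261. These GL261 values were closer together than those of any other called member (SD 0.13 on the log2 scale, n = 4), and it fell by 1.19 (SE 0.19, adjusted p = 0.00624).

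The brightest Ighm probe set, 1427351_s_at, had signals of 2977, 1966 and 2459 in normal brain and 1578, 949, 1605 and 1518 in GL261. Its groups did not overlap, but its log2 fold change of -0.81 was not called (SE 0.23, adjusted p = 0.0630). It was called where fewer probe sets were tested, with 1 per gene (adjusted p = 0.0388) or a filter at the 60th percentile (adjusted p = 0.0396), and under quantile normalization (adjusted p = 0.0466). The probe set 1425385_a_at had signals of 905, 632 and 408 in normal brain and 1558, 47.8, 1095 and 500 in GL261. Those groups overlapped, with replicate 2 far under the other tumour arrays, and the log2 fold change of -0.42 (SE 0.90, adjusted p = 0.832) became 0.62 without that array (adjusted p = 0.456).

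The dim Ighm probe sets differed in another way. In 4 of them, 1425247_a_at, 1427756_x_at, 1427869_at and 1427870_x_at, only normal brain replicate 1 was above background. Its signals were 105, 83.9, 71.2 and 33.6, against 0.589 to 6.84 on the other normal brain arrays and 0.632 to 12.1 in GL261. Probe set 1451949_at was above background on all 3 normal brain arrays (26.1, 17.9 and 21.3) and on 0 of the GL261 arrays (7.04, 1.69, 6.75 and 7.13). Against the background its fold is at least 1.36-fold lower in GL261, a bound that takes the normal brain mean as exact. Probe set 1452535_at was lower on every GL261 array (log2 fold change -1.59, SE 0.61, adjusted p = 0.154), while 1426196_at (-0.38, SE 0.50, adjusted p = 0.704) and 1425324_x_at (-0.47, SE 0.54, adjusted p = 0.658) had overlapping groups, and none of these was called. Another 4 probe sets list Ighm together with other heavy chain genes and were left out. Probe sets for immunoglobulin chains can share sequence with related segments, so the attribution of each to Ighm alone is uncertain.

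**Figure D2:**
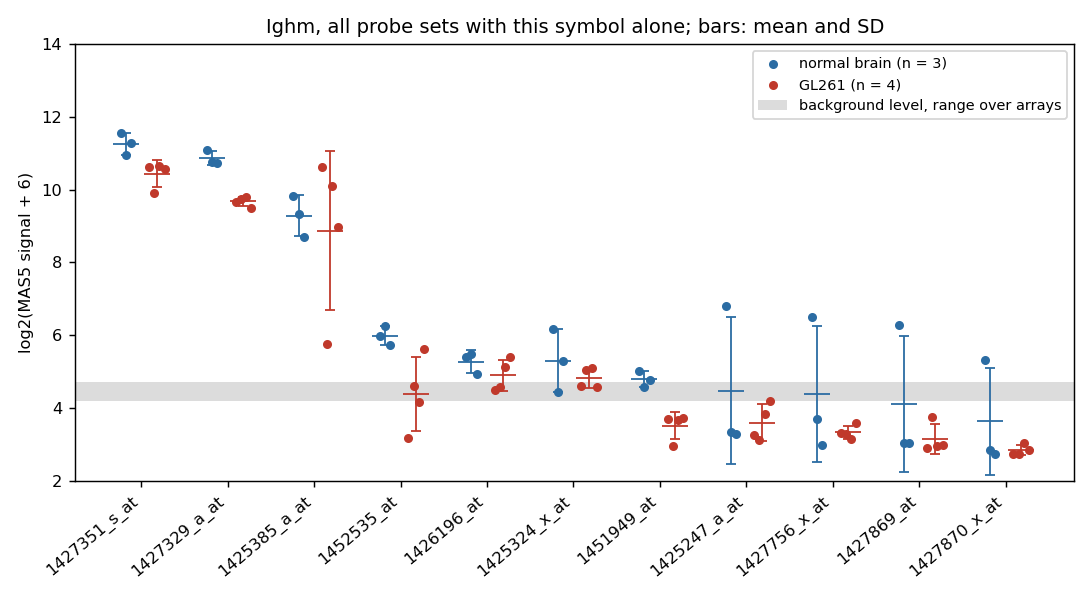
The plot gives log2(MAS5 signal + 6) of the 11 Ighm probe sets by array, blue for normal brain (n = 3) and red for GL261 (n = 4), with mean and SD as bars and the background level as a grey band. The brightest pair of probe sets has separate groups, 1425385_a_at is spread widely in GL261, and 4 probe sets are above background on normal brain replicate 1 alone.

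Blk, the Src-family kinase of the receptor, had signals of 442, 348 and 358 in normal brain and 12.8, 59.7, 51.9 and 17.3 in GL261. The normal brain arrays were close together, and of the GL261 arrays only replicates 2 and 3 were above background. Blk fell by 3.43 (SE 0.58, adjusted p = 0.00843).

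Ms4a1 was measured by 2 probe sets that gave like results. The probe set 1423226_at had signals of 1187, 938 and 910 in normal brain and 106, 269, 26.9 and 26.9 in GL261. The other, 1450912_at, had 1097, 897 and 738 in normal brain and 58.9, 103, 45.7 and 22.5 in GL261. In both, GL261 replicate 2 was the highest tumour array, and replicates 3 and 4 were the lowest. Probe set 1423226_at fell by 3.73 (SE 0.69, adjusted p = 0.0120). For 1450912_at the log2 fold change was -3.99 (SE 0.51, adjusted p = 0.00201). The call of 1423226_at was lost when variances were moderated without a trend on the signal (adjusted p = 0.0665).

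Fcer2a, which encodes CD23, was weaker and less certain. Its probe set 1422122_at had signals of 122, 146 and 124 in normal brain and 28.8, 31.7, 26.9 and 1.85 in GL261. The groups did not overlap, and GL261 replicate 4 alone was under background. It fell by 2.50 (SE 0.63, adjusted p = 0.0447), a call that was lost when any 1 of the 7 arrays was left out (adjusted p 0.0557 without GL261 replicate 2 to 0.0988 without normal brain replicate 2). This probe set passed the filter only through its normal brain values, and with no filter it was not called (adjusted p = 0.0937). The second Fcer2a probe set, 1451713_a_at, was above background on 1 array of each group and was not tested.

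Pax5 was not measurable on these arrays. Its probe set 1454401_at had signals of 0.801 to 1.04 in normal brain and 0.710 to 1.08 in GL261. The other, 1421765_at, had 1.69, 1.18 and 2.50 in normal brain and 2.13, 1.29, 1.62 and 21.2 in GL261, where only replicate 4 was above background. Neither passed the filter, so whether Pax5 changed could not be seen with these probe sets.

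Vpreb3 had signals of 85.7, 82.1 and 237 in normal brain and 3.89, 52.8, 32.1 and 63.6 in GL261. Normal brain replicate 3 and GL261 replicate 1 stood apart in opposite directions, and although the groups did not overlap, the log2 fold change of -1.83 was not called (SE 0.74, adjusted p = 0.173). Its 95% confidence interval was -3.44 to -0.22 before any adjustment for the number of probe sets.

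Jchain, the joining chain of secreted IgM and IgA, had signals of 3923, 3090 and 2959 in normal brain and 1919, 1672, 1025 and 1635 in GL261. Its groups did not overlap, and GL261 replicate 3 was the lowest tumour array. Jchain fell by 1.11 (SE 0.22, adjusted p = 0.0173), and its call was lost without normal brain replicate 1 (adjusted p = 0.0552) and when variances were moderated without a trend on the signal (adjusted p = 0.0997).

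Jchain was set against the other genes within each array. In normal brain Ms4a1 minus Jchain was -1.71 ± 0.01 (SD, n = 3), and the tumour arrays had -4.33 ± 1.31 (SD, n = 4) (two-sided exact permutation p = 0.0571, adjusted over 6 pairs 0.0686). Cd79a minus Jchain shifted by -2.53 (exact permutation p = 0.0286, adjusted 0.0571) and Cd79b minus Jchain by -0.53 (exact permutation p = 0.0286, adjusted 0.0571). Ms4a1 minus Ighm 1427351_s_at shifted by -2.92 (exact permutation p = 0.0571, adjusted 0.0686), and Ighm minus Jchain by 0.30 (exact permutation p = 0.571). No pair had an adjusted p under 0.05.

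**Figure D3:**
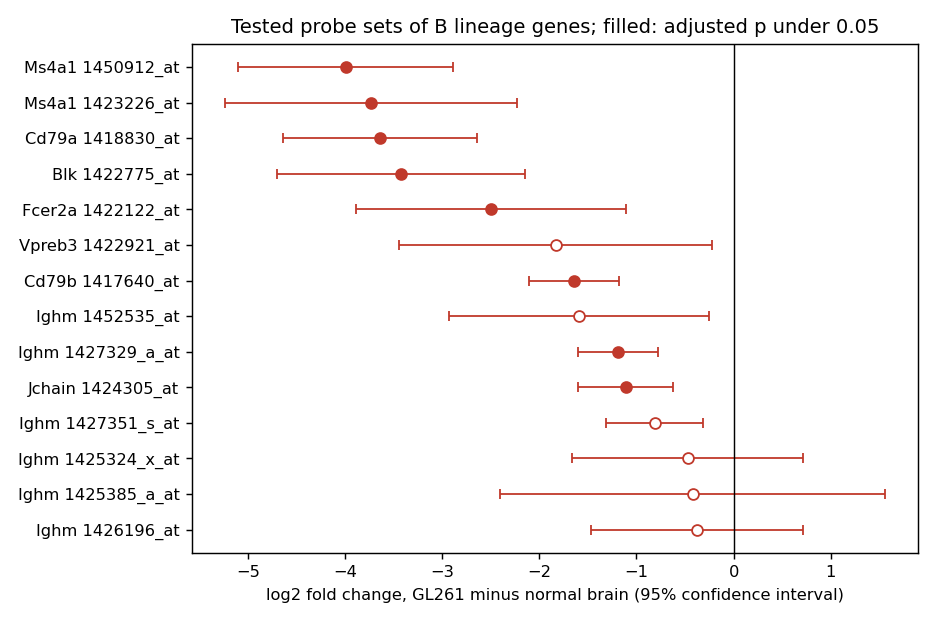
The plot gives the log2 fold change (GL261 minus normal brain) with its 95% confidence interval for the 14 tested B lineage probe sets, ordered by size, with filled points for an adjusted p under 0.05. Ms4a1, Cd79a and Blk lie between -3.99 and -3.43, and Jchain and the called Ighm probe set near -1.1 and -1.2.

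The members also varied between arrays of 1 group. The mean profile of the 8 tested genes, each relative to its own mean over the 7 arrays, was 1.43, 1.15 and 1.42 in normal brain replicates 1 to 3. In GL261 it was -1.19, -0.37, -1.10 and -1.34 in replicates 1 to 4, so replicate 2 was the highest tumour array. Of the 14 tested probe sets, 6 were highest among the GL261 arrays in replicate 2 and 6 were lowest in replicate 4. Normal brain replicate 1 was the highest of its group for 9 of the 14. Without GL261 replicate 2, 7 probe sets were called lower, and 6 without normal brain replicate 1.

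**Figure D4:**
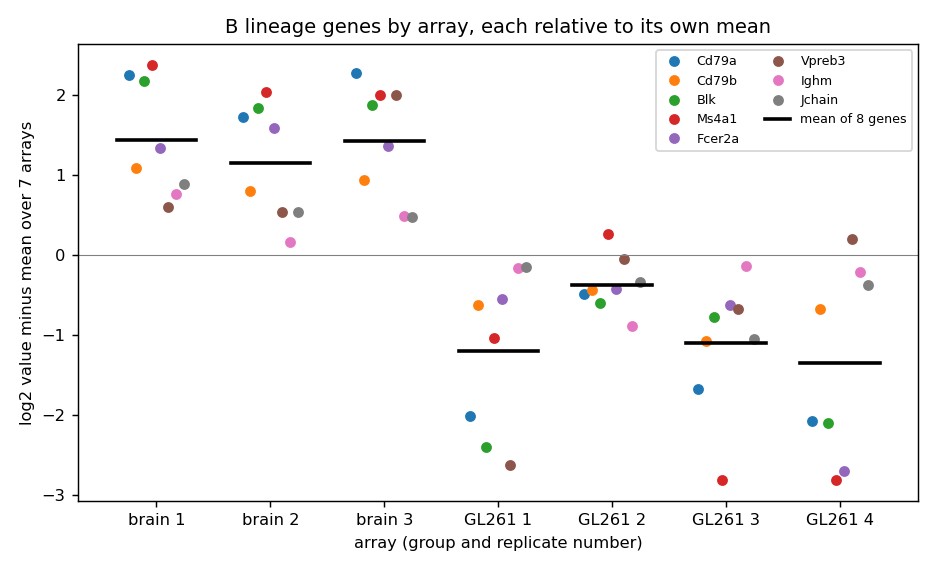
The plot gives, for each array, the log2 value of 8 B lineage genes minus the gene's mean over all 7 arrays, with the mean of the 8 genes as a black line. The means are 1.15 to 1.43 in normal brain and -1.34 to -0.37 in GL261, with GL261 replicate 2 nearest to 0.

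Other B cell genes were taken from lists of surface, transcription factor, precursor and plasma cell genes, each gene standing by its brightest probe set on average. Of 48 such genes 45 were tested, and 15 were called lower and 2 higher, with a median log2 fold change of -0.64 over the 48. Among 16 surface genes 8 fell and 0 rose, against 2.47% of all probe sets tested that were called lower. The count was 3 when variances were moderated without a trend on the signal. Of the 16, 14 had a log2 fold change under 0. Cd72 (0.62, adjusted p = 0.0704) and Cd40 (0.33, adjusted p = 0.352) went the other way, and neither was called. Fcmr, a receptor for IgM, fell by 3.62 (adjusted p = 0.0177), a call lost without GL261 replicate 3 (0.0535), without normal brain replicate 1 and without that trend (0.0669). Tnfrsf13c, the receptor for the survival factor BAFF, fell by 2.62 (adjusted p = 0.0137, and 0.0530 without the trend). The scaffold gene Bank1 fell by 2.35 (adjusted p = 0.0124, and 0.0501 once normal brain replicate 2 was left out) and the Fc receptor-like gene Fcrl1 fell by 2.29 (adjusted p = 0.00875).

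Of 12 transcription factor genes 6 fell and 0 rose, against 2.47% of all probe sets tested that were called lower. Ebf1, which acts with Pax5 in early B cells, fell by 3.28 (adjusted p = 0.0109, and 0.0635 without the trend), and Pou2af1, the octamer coactivator, fell by 2.64 (adjusted p = 0.000940). Spib fell by 1.57 (adjusted p = 0.00819, and 0.0512 without the trend) and Irf4 fell by 1.22 (adjusted p = 0.0218, with the call lost without any 1 normal brain array or GL261 replicate 4, at most 0.0626, or without the trend, 0.113). The count was 3 without normal brain replicate 2 or 3, and 1 without the trend.

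Of 7 tested precursor genes 1 fell (2 without GL261 replicate 3), against 2.47% of all probe sets tested that were called lower, and 1 rose. The surface gene Ly6d fell by 1.49 (adjusted p = 0.00620). Il7r, the IL-7 receptor that T cells also carry, rose by 0.84 (adjusted p = 0.0319, against 2.98% of all probe sets called higher). Its call was lost without normal brain replicate 1 or 3 or GL261 replicate 1, 3 or 4 (adjusted p up to 0.0975) or without the trend (0.141). Of 10 plasma cell genes 0 fell by limma and 1 rose. This was Prdm1, a factor of plasma cell maturation that other leukocytes also use, which rose by 1.85 (adjusted p = 0.0155, with the call lost without normal brain replicate 2 or 3 or GL261 replicate 3, at most 0.0542, or without the trend, 0.0921).

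Genes that carry the signal inside the cell, which macrophages use as well, were mostly not called. Of 19 tested genes of receptor signalling 1 fell and 0 rose (1 rose without GL261 replicate 2), with a median log2 fold change of -0.02. Over all probe sets tested 2.47% were called lower. Rasgrp3, an activator of Ras, fell by 1.91 (adjusted p = 0.00123). Among 5 tested niche ligands none was called by limma, and 1, Kitl, was lower without normal brain replicate 2 (adjusted p = 0.0481). Those with the smallest p were Kitl (-1.73, adjusted p = 0.0886) and Tnfsf13b, which encodes BAFF (0.54, adjusted p = 0.171).

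**Figure D5:**
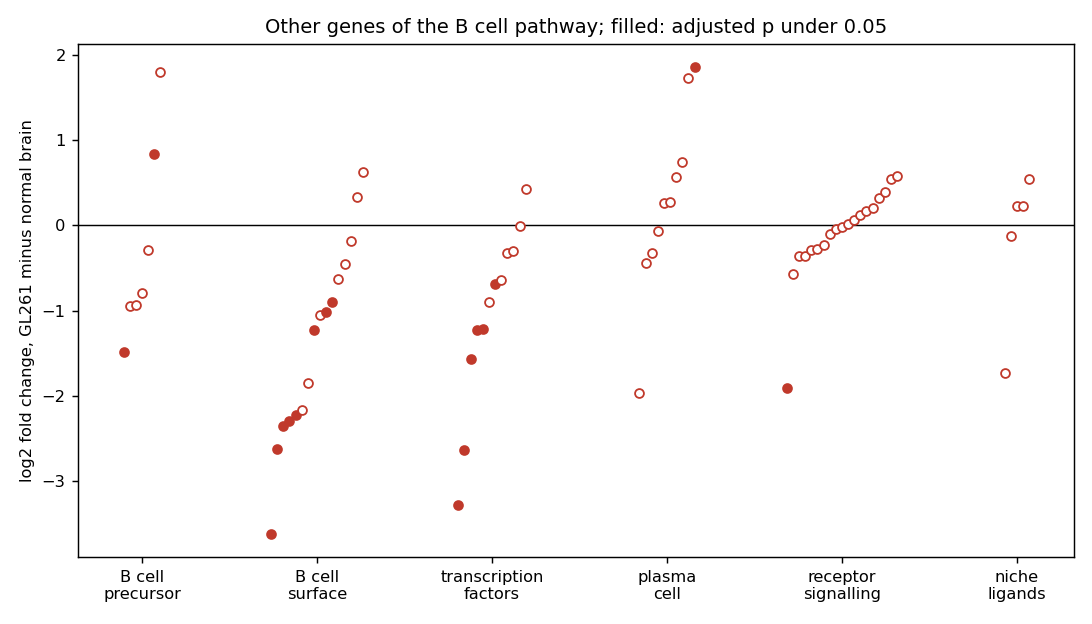
The plot gives the log2 fold change (GL261 minus normal brain) of every tested gene in the 6 lists of B cell pathway genes, with filled points for an adjusted p under 0.05. Filled points lie under 0 in the surface (8 of 16) and transcription factor lists (6 of 12), and receptor signalling has 1 of 19. Over all probe sets tested 2.47% were called lower.

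Among immunoglobulin probe sets other than Ighm, calls were lower where made, and most were not called. Of 32 with 1 immunoglobulin symbol 21 were tested, and 9 were called lower, 0 higher and 12 not called (median -1.45 over the 32, of which 5 were at background on all arrays). As 4 of the 9 passed the filter only through their normal brain values, the count was also taken with no filter. There 7 of 32 were called lower, 5 of them among the 9. Over all probe sets, 2.47% of those tested were called lower, and 0.888% with no filter. With the filter the immunoglobulin count was 5 without any 1 normal brain array or without GL261 replicate 1, 3 or 4. The following were chosen after their values were seen.

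The same 5 probe sets kept their calls in each fit without 1 array and with no filter. Of these the heavy chain variable probe set named Ighv14-2 (1455530_at) fell by 3.88 (adjusted p = 0.000533) and the lambda probe set Iglv1 1447918_x_at fell by 3.88 (adjusted p = 0.00254). The other three are kappa variable probe sets that were near or under background on most GL261 arrays. Igk-V21 (1427858_at) fell by 6.43 (adjusted p = 0.000533), Igkv9-120 (1460423_x_at) fell by 5.52 (adjusted p = 0.000468) and Igkv14-111 (1451951_at) fell by 4.41 (adjusted p = 0.00152). The alpha heavy chain Igha (1421653_a_at) fell by 1.91 (adjusted p = 0.0335), a call lost with no filter (0.0695) and in each fit without 1 array other than GL261 replicate 2 (at most 0.0995). In it GL261 replicate 2 (log2 12.15) lay close to normal brain (12.29 to 12.63), and the other GL261 arrays were at 9.93 to 10.10. A second called Igha probe set, 1425763_x_at (-2.27, adjusted p = 0.0476), had overlapping groups, and 1429381_x_at was not called (-2.09, adjusted p = 0.0508). The kappa probe set Igk 1452557_a_at fell by 0.76 (adjusted p = 0.0409) and lost its call with no filter (0.0695) and without any 1 of the 7 arrays (at most 0.120). Among those not called, another Iglv1 probe set, 1430523_s_at, had a log2 fold change of 0.17. Another Igkv9-120 probe set, 1452536_s_at, had -0.04 (adjusted p = 0.989), and the bright kappa probe set Igkv8-30 1452463_x_at also had -0.04 (adjusted p = 0.960). The Igkv9-120 probe set 1427750_at (-0.40) was not tested.

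The 8 probe sets of other genes whose values over the 7 arrays lay closest to the mean profile of the members were those of Fcrl1, Slc16a10, Arhgef18, Rasgrp3, H3f3b, H2-Eb2, H2-Ob and Jcad. Likeness was the root mean square difference of centred log2 values, 0.26 for Fcrl1 to 0.30 for Jcad over 22618 probe sets compared. It is a description with no test. For the members themselves it ran from 0.42 for Cd79b to 1.03 for Ms4a1. The 8 were picked as the nearest of all those compared, so their lying nearer than any single member follows from the search. Arhgef18 (mean log2 value 6.22 in normal brain and 3.98 in GL261) passed the filter only through its normal brain values.

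Markers of other cells differed in more than 1 direction. All 7 macrophage markers were above background on every array, with summed signals of 47320 to 55440 in normal brain and 40060 to 52920 in GL261. Of the 7, 1 fell. This was Cx3cr1, which encodes a chemokine receptor of microglia and monocytes (log2 fold change -0.71, adjusted p = 0.0456), with a call lost in each fit without 1 array other than GL261 replicate 2 (at most 0.131). Log2 fold changes were -0.39 for Adgre1, the F4/80 gene (adjusted p = 0.110), and -0.28 for Csf1r (adjusted p = 0.428), and neither was called. Ptprc, which encodes the leukocyte antigen CD45, was also not called (-0.36, adjusted p = 0.198).

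Over all probe sets tested 2.47% were called lower, a share to set beside every marker count. Summed neutrophil signal (6 of 7 tested genes called lower) was 39750 to 51090 in normal brain and 16540 to 22950 in GL261. Most of that sum came from S100a8 and S100a9, with log2 fold changes of -1.01 and -0.97. Ngp (-4.66), Mpo (-3.84), Camp (-3.78) and Ltf (-3.71) were also called lower, and Mmp8 was not called (-0.16). Leaving out 1 array lost the call of Ltf in 6 fits and of Camp in 1. Erythroid signal (2 of 3 lower, Hba-a1 at background on all arrays) was 9424 to 16100 and 92.4 to 4499, with GL261 replicate 2 the highest tumour array. Leaving out 1 array took the erythroid count to 0 (normal brain 3, or either of GL261 3 and 4) or to 1 (normal brain 1 or 2, or GL261 1). Endothelial signal was 2116 to 2657 and 302 to 1141, again with replicate 2 the highest in GL261. Of 5 tested endothelial genes 3 were called lower, with log2 fold changes of -4.69 for the brain endothelial transporter Slco1a4, -4.04 for the receptor Tek and -3.69 for the tight junction gene Cldn5. The others had log2 fold changes of 1.23 for Pecam1, whose GL261 arrays were all above the normal brain arrays, and 0.43 for Kdr, and neither was called. The endothelial count was 0 without GL261 replicate 4, and 1 without GL261 replicate 1 or any 1 normal brain array. Of the called markers, Mpo (neutrophil), Alas2 (erythroid) and Tek passed the filter only through their normal brain values. With no filter 5 neutrophil, 1 erythroid and 2 endothelial genes were called lower, against 0.888% of all probe sets.

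T and NK cell signal was 2752 to 4637 and 3623 to 6882. Of its 8 genes limma called 0, but 2 higher without GL261 replicate 2, with a filter at the 60th percentile or with 1 probe set per gene, and 1 higher without normal brain replicate 2 or 3. The summed signal of 7 plasmacytoid dendritic cell markers was 13640 to 16400 and 13060 to 15440. Most of it came from Bst2 (mean log2 value 13.13 in normal brain, 12.85 in GL261) and Lair1 (11.97 and 12.41). The sum therefore says little of the dimmer markers. Of the 7, 2 had a log2 fold change under 0, and Ccr9 had 2.24 and was not called (adjusted p = 0.160). Of those 7 genes 1 fell, the lectin gene Siglech, by 2.00 (adjusted p = 0.0198, with the call lost without normal brain replicate 1 or 3 or GL261 replicate 4, at most 0.0589). Which cells of these macrophage preparations carried Siglech RNA was not tested. When variances were moderated without a trend on the signal, 1 neutrophil marker was called lower and 0 of the other lists by limma. Gapdh signal at the 3' end over that at the 5' end, a sign of RNA quality, was 2.39 to 2.43 in normal brain and 1.64 to 1.89 in GL261. The part of these differences in the results for B lineage genes was not tested.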

How the data were processed

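The authors deposited 1 signal intensity per probe set and array on a linear scale, made with MAS5 per the submitters' processing notes. The MAS5 version is not given in the sources used here, and detection calls were not used. Trimmed by 2% at each end, the array means were all 500, so no further scaling was applied. Median signals were 49.5 to 73.0. Genes were named through the platform annotation, and all 9 gene IDs matched RefSeq. The tests used log2(signal + 6), with 6 set at the 20th percentile over all arrays, so fold changes of dim probe sets are understated. Every probe set above the 40th percentile of non-control means was tested by limma 3.58.1 in R 4.3.3, with variances that follow the signal, two-sided, with Benjamini-Hochberg adjustment over 27022 probe sets. Unlike a fit with 1 probe set per gene, this covers all probe sets of a gene. Background was the 95th percentile of 27 unspiked Bacillus control probe sets on each array. Named genes were all members, up to 4 called genes per list in the main direction and 2 in the other, or the 2 with the smallest p, and the 8 closest in profile. Some other genes of the lists were named after their values were seen. The lists hold 54 B cell symbols, of which 48 matched a probe set. Members and lists were chosen with earlier results of these data known. The procedure was tested on simulated data. Figures were drawn with matplotlib 3.10.9 in Python 3.11.15. In all 17 alternatives were run.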

Additional observations from a re-analysis of the deposited data

Results flagged for a closer look

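Among the 22 B lineage probe sets, 5 had a GL261 array far from the other 3, by the gap to the nearest value over the whole range. Chance flags about 1 in 20 such groups. Replicate 2 was low for Ighm 1427351_s_at (log2 9.90, others 10.57 to 10.65) and for Ighm 1451949_at (2.94, others 3.67 to 3.72). It was high for Ighm 1427869_at (3.76, others 2.89 to 2.98). Replicate 4 was high for Pax5 1421765_at (4.76, others 2.87 to 3.02) and low for Fcer2a 1422122_at (2.97, others 5.04 to 5.24). The values of Ighm 1427351_s_at and Pax5 lay above the background of their array, and the other three lay under it.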

How the results depend on the processing

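When variances were moderated without a trend on the signal, 5 B lineage probe sets, 5 other B lineage genes and 340 probe sets in all were called, against 8, 15 and 1473. With no filter 858 probe sets were called in all. Leaving out 1 array gave 6 to 7 B lineage probe sets, 11 to 14 other B lineage genes, 5 to 8 immunoglobulin probe sets and 545 to 1332 probe sets in all. Ighm 1425385_a_at turned to 0.62 without GL261 replicate 2 and was -1.002 to 0.62 over all fits without 1 array. Cd79a, Cd79b, Blk, Ms4a1 1450912_at and Ighm 1427329_a_at kept their calls in every alternative that tested them. Correlations of deviations from the group mean were 0.117, -0.03 and 0.07 between same-numbered arrays of replicates 1 to 3. Between arrays of other numbers they were -0.127 to 0.119, -0.025 to 0.032 and -0.071 to 0.052. So few arrays cannot show whether the replicate numbers pair them. With the replicate block 8 B lineage probe sets, 14 other B lineage genes, 7 immunoglobulin probe sets and 1294 in all were called. That fit also leaves out GL261 replicate 4, which has no partner. In it Ighm 1427351_s_at gained a call (adjusted p = 0.0434, and 0.108 without that array and no block), and Fcer2a 1422122_at lost its own (adjusted p = 0.0984, and 0.0804 without that array and no block). The causes were not tested, and low signal limits Pax5, Fcer2a and most Ighm probe sets.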
